A study of Mus musculus with 12 samples.

Results

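Slc4a11 and Rpe65 are 2 of the 23725 genes in a deposited RNA sequencing table of the mouse subventricular zone, the neurogenic tissue that lines the lateral ventricles of the brain. They were chosen by their symbols because both had been seen to be higher at 6 than at 2 months in every library, so their 2- and 6-month values are given as a description, with no test. The study sampled male wild type mice at 4 ages, 2, 6, 18 and 22 months, with 3 libraries at each age and no treatment. After dissection the tissue was broken up into single cells, from which RNA was extracted and sequenced in bulk. The strain, C57BL/6, was stated for the 2-month samples alone, so age and any difference of strain between the 2-month and the older libraries cannot be told apart. Nothing in the labels ties the 3 libraries of 1 age to separate mice, so p-values measure the spread between libraries, which may be technical. In bulk RNA, fewer cells of a type and less RNA per cell cannot be told apart.

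Slc4a11 encodes a plasma membrane transporter placed by its sequence in the SLC4 family of bicarbonate transporters. Unlike most of that family it is known for moving protons or hydroxide, ammonia and water rather than bicarbonate, and it is best known from the corneal endothelium, where its loss causes corneal dystrophy in people. Rpe65 encodes the retinoid isomerase of the visual cycle, the enzyme of the retinal pigment epithelium that turns all-trans-retinyl esters into the cis form of retinol used to rebuild visual pigment. Its substrate is made by Lrat, and it belongs to the carotenoid oxygenase family with Bco2 and the beta-carotene cleaving enzyme Bcmo1.

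The files identify Slc4a11 as gene 269356, and RefSeq places it on the minus strand of chromosome 2 from 130684107 to 130697519 (GRCm38.p6, which corresponds to the mm10 build named in the submitters' processing notes). Rpe65 is gene 19892, on the plus strand of chromosome 3 from 159599075 to 159625307. No other annotated gene overlapped either of them on either strand. The longest annotated protein-coding transcript had 3196 nucleotides and 54.4% GC for Slc4a11, against 1863 nucleotides and 42.2% GC for Rpe65. The promoter of Rpe65 is shown because both genes differed between ages and the RefSeq promoter table holds an entry for it. It covers chr3:159598931-159599230 on the plus strand, 250 bases before and 50 after the start used for the promoter. That start lies downstream of 159599075, the first base of the gene given above, and positions are counted from it. Capitals mark the motif matches found in the window.
Rpe65 promoter: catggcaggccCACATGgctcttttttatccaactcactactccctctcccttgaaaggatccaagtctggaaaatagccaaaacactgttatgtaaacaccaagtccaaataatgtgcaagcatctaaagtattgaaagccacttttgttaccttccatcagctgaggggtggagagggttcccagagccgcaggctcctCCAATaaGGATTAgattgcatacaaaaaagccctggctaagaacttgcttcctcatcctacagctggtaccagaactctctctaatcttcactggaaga
In all 7 motifs were searched, each on both strands, and a match is a description of letters, not a binding site. CATGTG, an E-box form bound by MITF-type factors of pigment cells, matched 1 time, on the minus strand at position -239 from the start, and was present in 14.15% of 32851 mouse promoters of that length. GGATTA, the core read by OTX and CRX homeodomain factors, matched 1 time on the plus strand at position -42 and was present in 7.06% of the promoters. CCAAT, the box bound by NF-Y, matched 1 time at position -49 and was present in 37.41%. The matches of CCAAT and GGATTA did not overlap and lay close to each other, upstream of the start used for the promoter but inside the gene bounds given above. The canonical E-box CACGTG (7.15% of promoters), the nuclear receptor core AGGTCA (16.26%), the steroid receptor core AGAACA (18.97%) and TATAAA (13.62%) had no match in these letters.

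Slc4a11 was expressed at a low to moderate level in all 12 libraries and separated the 2-month libraries from the rest. Levels are normalised counts, reads per gene divided by a size factor for each library. At 2 months its normalised counts were 54.67, 51.35 and 58.2, from 46, 56 and 54 reads. At 6 months they were 164.1, 164.3 and 172.2, from 161, 283 and 196 reads. As the choice required, the 2-month libraries all lay below the 6-month libraries, by a wide margin compared with the spread inside either age. At 18 months they were 182.9, 159.6 and 199.5, and at 22 months 163, 142.5 and 178.1. The 6-, 18- and 22-month libraries overlapped one another, and no library of these ages came down to the 2-month range. The mean was 54.7 ± 3.42 at 2 months (SD, n = 3), with 166.9 ± 4.62 in the 6-month and 180.7 ± 20.02 in the 18-month libraries and 161.2 ± 17.9 in those of 22 months.

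The 6-month mean of Slc4a11 was 3.05 times the 2-month mean, a difference of 1.59 ± 0.11 (SE) on the log2(normalised count + 1) scale. It ranked 12th from the top of 15663 tested genes in that contrast. From 6 to 18 months the ratio of the means was 1.08 (log2 difference 0.11 ± 0.11), and it ranked 3394th. The 22-month mean was 0.966 times the 6-month mean and 2.945 times the 2-month mean, with log2 differences of -0.06 ± 0.11 and 1.54 ± 0.11. The order of the ages was thus 2, 22, 6 and 18 months from low to high, and of its neighbours 22, 6 and 18 months did not differ beyond their spread.

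Rpe65 was a lower gene with a different course after 6 months. At 2 months its normalised counts were 11.88, 11.0 and 7.544, from 10, 12 and 7 reads, with exact Poisson 95% intervals that together ran from 3.033 to 21.86. At 6 months they were 37.71, 36.58 and 41.29, from 37, 63 and 47 reads. All 2-month libraries lay below all 6-month libraries, as the choice of the gene required. The counting intervals of the 2 ages, which describe the same values, did not overlap. At 18 months the normalised counts were 54.43, 65.64 and 63.87, from 64, 81 and 89 reads. At 22 months they were 35.2, 45.54 and 51.79, from 27, 31 and 50 reads. The 18-month libraries lay above every 6-month and every 22-month library, and the 22-month libraries overlapped those of 6 months. The mean was 10.1 ± 2.29 at 2 months (SD, n = 3), with 38.5 ± 2.46 in the 6-month, 61.3 ± 6.03 in the 18-month and 44.2 ± 8.38 in the 22-month libraries.

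**Figure D1:**
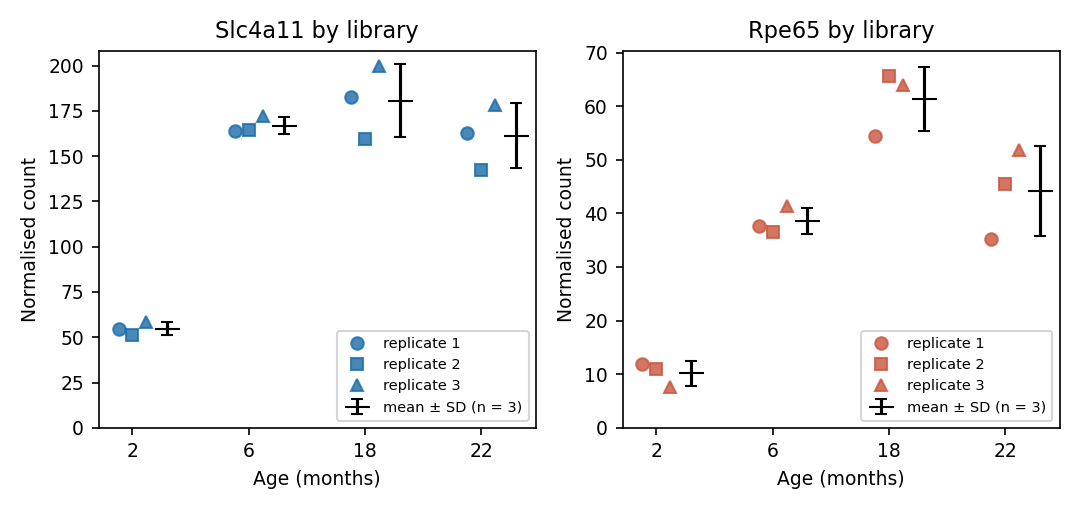
Normalised counts (vertical axis, from 0) of Slc4a11 (left) and Rpe65 (right) in each of the 12 libraries by age in months, with the ages evenly spaced; the black marks are the mean ± SD of 3 libraries. Slc4a11 sits between 51.35 and 58.2 at 2 months and between 142.5 and 199.5 at the later ages, and Rpe65 is highest at 18 months, between 54.43 and 65.64.

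For Rpe65 the 6-month mean was 3.798 times the 2-month mean, a log2 difference of 1.85 ± 0.21, the 7th from the top of the tested genes. The 18-month mean was 1.59 times the 6-month mean (log2 difference 0.65 ± 0.21, 226th from the top) and 6.04 times the 2-month mean (2.50 ± 0.21). At 22 months the mean was still 4.355 times that at 2 months (2.02 ± 0.21) and 1.15 times that at 6 months (0.18 ± 0.21). These log2 differences understate the change of so low a gene, because 1 was added to each value. The order of the ages was 2, 6, 22 and 18 months, and of these neighbours only 6 and 22 months overlapped. Among all tested genes, 12.3% had every 6-month library above every 2-month library, 7.55% had every 18-month above every 6-month library, and 14% and 24.7% had every 18- or 22-month library above every 2-month library. Between 2 and 6 months 0.926% passed the adjusted threshold, 0.607% higher and 0.319% lower. Slc4a11 and Rpe65 were above their 2-month range at 6 months by the way they were chosen. Every 18-month library lay above every 6- and 22-month library for Rpe65 and in all for 233 genes, 1.49% of those tested. Of these 31 (0.198%) also had every 6-month above every 2-month library, the step for which Rpe65 was chosen.

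The 22- and 18-month libraries were not used to choose the genes, and here their difference was tested. Neither gene passed the threshold. Rpe65 was lower at 22 than at 18 months by a ratio of means of 0.7205, a log2 difference of -0.48 ± 0.21 with a 95% interval of -0.92 to -0.04 and an adjusted p of 0.119 (limma with Benjamini-Hochberg adjustment over all 15663 tested genes, two-sided). Its unadjusted p was 0.0353, and 33.4% of the tested genes had one under 0.05. All 3 of its 22-month libraries were below all 3 of its 18-month libraries, which held for 16.2% of the tested genes. Slc4a11 had a ratio of 0.892 and a log2 difference of -0.16 ± 0.11, with an interval of -0.41 to 0.08 and an adjusted p of 0.341, and its libraries overlapped. Between these ages 18.9% of all tested genes passed, 8.63% higher and 10.2% lower at 22 months. Neither gene passed by edgeR's quasi-likelihood test on the recovered reads (adjusted p = 0.272 for Slc4a11 and 0.0629 for Rpe65) or by DESeq2 (0.451 and 0.193). Without the 22-month library of replicate 1, the lowest of its age, the difference of Rpe65 was -0.33.

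The spread between libraries was set beside the error of counting reads. The coefficient of variation of Slc4a11 between libraries was 6.25% at 2 months and 2.77% at 6 months, below the 13.9% and 6.85% that counting error alone would give. At 18 and 22 months it was 11.1% at both ages, above the 6.59% and 8.73% from counting. Rpe65 varied by 22.6%, 6.39%, 9.83% and 19.0% from the youngest to the oldest age, against 32.2%, 14.3%, 11.3% and 16.7% from counting. Agreement closer than counting error, as in the 6-month libraries of both genes, does not measure the spread to be expected in further libraries.

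Rpe65 was the less abundant transcript at every age, also per length. Per kilobase of transcript the mean normalised counts of Slc4a11 were 17.1, 52.2, 56.5 and 50.4 at 2, 6, 18 and 22 months, and those of Rpe65 were 5.45, 20.7, 32.9 and 23.7. The level of Rpe65 per kilobase relative to that of Slc4a11 was 32.1 ± 8.54% in the 2-month, 39.6 ± 1.48% in the 6-month, 58.8 ± 10.3% in the 18-month and 47.25 ± 9.17% in the 22-month libraries (SD, n = 3). The ratio was thus highest at 18 months. The log2 ratio was lower at 22 than at 18 months by a difference of -0.32, with an exact permutation p of 0.2 (two-sided, and 0.1 is the smallest that 3 libraries against 3 can give).

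**Figure D2:**
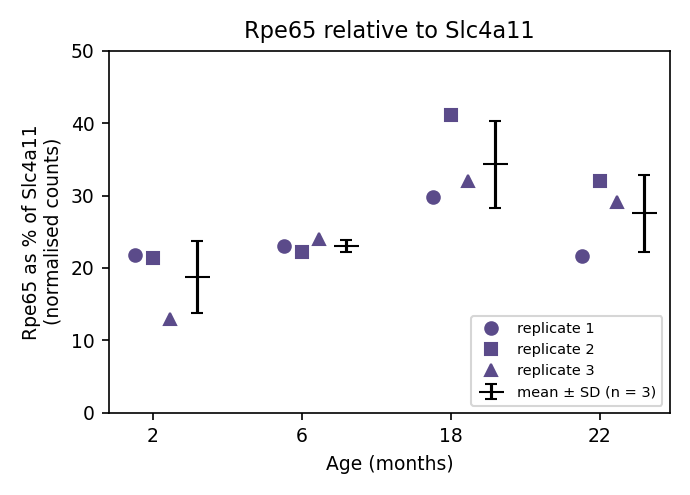
Normalised count of Rpe65 as a percentage of that of Slc4a11 in each library (vertical axis, from 0, not scaled by transcript length) by age in months, with the ages evenly spaced and the mean ± SD of 3 libraries. The mean was 18.7% in the 2-month, 23.1% in the 6-month, 34.3% in the 18-month and 27.5% in the 22-month libraries, and the libraries of 22 months overlap those of 18 months.

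Across the 12 libraries the log2 levels of the 2 genes had a Pearson correlation of 0.950 and a Spearman correlation of 0.678. These are descriptions over libraries that share ages and size factors. The 2-month libraries carry most of this likeness, since over the 9 libraries of 6, 18 and 22 months Pearson's r was 0.42, and over the deviations from the age means it was -0.13. Both genes were chosen for being higher at 6 than at 2 months, which by itself makes them alike over the 12 libraries. With that limit, Rpe65 was the 3rd most like Slc4a11 of 15662 genes, and over the 9 later libraries it was the 2817th.

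The other genes whose pattern was most like that of Slc4a11 had smaller ratios between 6 and 2 months. Txnip, a binding partner of thioredoxin that limits glucose uptake, had r = 0.952 and means of 463.2, 635.3, 664.4 and 614 normalised counts at 2, 6, 18 and 22 months. Ltbp3, a secreted binding protein of latent TGF-beta, had r = 0.951. Agxt2l1, an enzyme that breaks down phosphoethanolamine and is known from astrocytes, had r = 0.938 and means of 119.3, 263.3, 282.3 and 201.9. Flcn, a regulator of mTORC1 signalling at the lysosome, Aifm3, a relative of apoptosis-inducing factor, and Fam57b, a protein of ceramide metabolism, had r of 0.939, 0.932 and 0.932. Of the 10 genes most like Slc4a11, Pcdhga7, a clustered protocadherin of neuronal cell surfaces, kept the closest likeness over the 9 later libraries (r = 0.936), where the 10 ranged from 0.213 to 0.936.

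The genes most like Rpe65 were led by neighbours in a single gene cluster. Fbxw21 (r = 0.979), Fbxw22 (0.962), Fbxw20 (0.944), Fbxw19 (0.940) and Fbxw16 (0.937) encode F-box proteins with WD40 repeats and lie between 109139454 and 109495863 on chromosome 9. They are similar copies, so their reads may be divided between them in a way the files do not show, and they are not 5 independent likenesses. Fbxw21 had normalised counts of 28.52, 22.93 and 18.32 in the 2-month, 60.13, 45.29 and 60.62 in the 6-month, 74, 69.69 and 85.4 in the 18-month, and 54.76, 60.23 and 58 in the 22-month libraries. Its 18-month libraries were above all others, as were those of Rpe65. Abca8a, a lipid-transporting ABC protein, had r = 0.942 and means of 156.4, 273.5, 375.7 and 283.9, with the same order of ages. Cog7, a subunit of a Golgi tethering complex, had r = 0.937 on a far smaller change, with means from 428.9 to 499.9. Pcdhga8 (r = 0.955) and Pcdhga7 (r = 0.947) completed the list beside Slc4a11, and these protocadherins share their last exons, so their reads may also be shared. Fbxw21, Fbxw19 and Pcdhga7 were the 3 genes on both lists. Over the 9 later libraries the 10 genes most like Rpe65 had r from 0.42 to 0.813. Over the deviations from the age means, r was positive for 7 of these 10 and for 9 of the 10 most like Slc4a11. The lists depended on the measure. Ranked by Spearman's rho, 3 of the 10 genes stayed among the 10 most like Slc4a11, and 1 of the 10 for Rpe65.

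**Figure D3:**
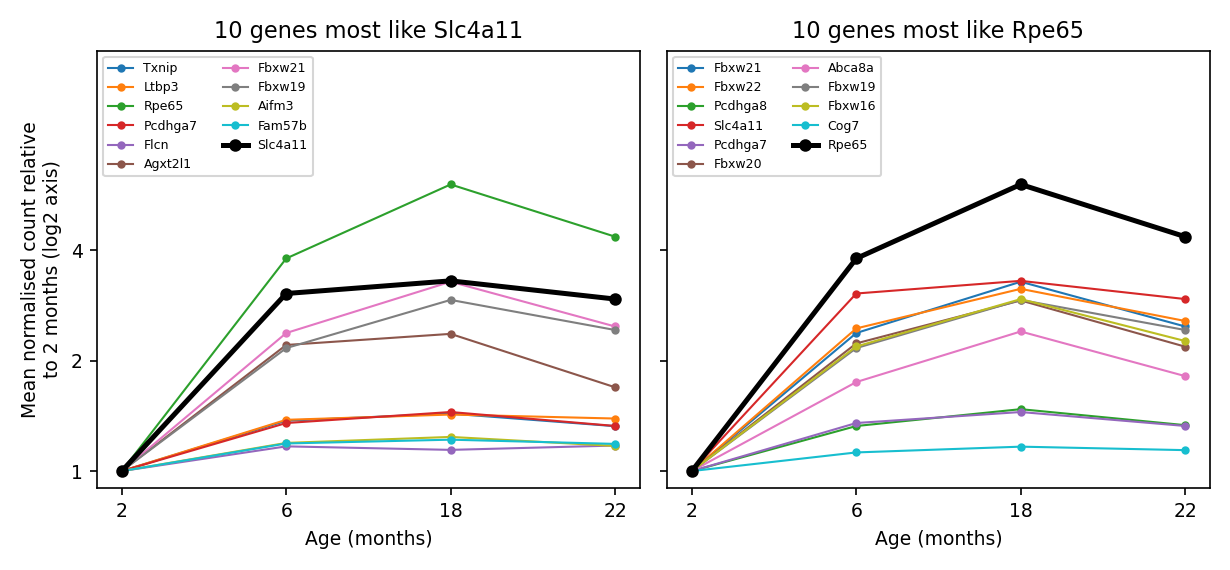
Mean normalised count at each age divided by the 2-month mean (log2 axis) for Slc4a11 (left, black) and Rpe65 (right, black) with the 10 genes most like each over 12 libraries; ages in months are evenly spaced, and lines join the means of 3 libraries. Slc4a11 reaches 3.301 times and Rpe65 6.04 times its 2-month mean at 18 months, and in the left panel Rpe65 is the only curve above that of Slc4a11.

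Slc4a11 itself carries no test between 2 and 6 months, the step for which it was chosen. Of the rest of the SLC4 family 0 members passed the threshold in that step, when 0.926% of all tested genes did. Of 9 other members 8 were tested (Slc4a9 was too low), with log2 differences from -0.33 to 0.17 and a median of -0.08, against a median of 0.00 over all tested genes. The most abundant were the sodium bicarbonate cotransporter Slc4a4, with a mean of 2679 normalised counts at 6 months, and the anion exchanger Slc4a3, with 1967. None passed between 6 and 18 months, when 0.153% of all tested genes did. From 18 to 22 months 1 of the 8, the sodium-driven exchanger Slc4a8, fell from 707.2 ± 68.3 to 516.1 ± 8.48 (log2 difference -0.45 ± 0.07, adjusted p = 0.00101, limma). With the trends over GC and transcript length removed, the difference of Slc4a8 was -0.05 (adjusted p = 0.568). Of 25 tested genes of acid-base handling (carbonic anhydrases, proton and lactate exchangers), 0 passed between 2 and 6 months and 0 between 6 and 18 months, while 2 were higher and 4 lower at 22 than at 18 months, a step in which 8.63% of all tested genes were higher and 10.2% lower. The sodium-proton exchanger Slc9a7 fell from 181 ± 32.2 to 99.8 ± 12.2 (log2 difference -0.84 ± 0.17, adjusted p = 0.00337, limma) and passed under all 23 other settings. The carbonic anhydrase relative Car11 rose (0.30 ± 0.06, adjusted p = 0.0038), though not with the GC and length trends removed (0.0694). The carbonic anhydrase Car14 was lower (-0.51 ± 0.14, 0.0187) and the lactate exporter Slc16a3 higher (0.66 ± 0.18, 0.0189). Car14 did not pass without 18-month replicate 2 (0.0556) or 3 (0.111) or 22-month replicate 1 (0.0674) or without an intensity trend (0.0554), nor Slc16a3 without 18-month replicate 2 (0.0643) or 22-month replicate 2 (0.0785). The list's median differences in these steps were 0.01, 0.03 and 0.05.

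Of the other genes of the visual cycle, 1 passed in a step in which Rpe65 had the higher value. Of 17 listed genes 11 were tested, and the 6 too low to test included Lrat, the enzyme that makes the substrate of Rpe65, with 0 to 6 reads in any library and at most 4.306 normalised counts. Stra6, the membrane receptor that takes up retinol from its carrier, was the 1 gene that passed between 2 and 6 months. It passed as higher, as 0.607% of all tested genes did. Its normalised counts were 46.35, 43.1 and 88.37 in the 2-month, 99.88, 113.8 and 116.8 in the 6-month, 129.3, 102.1 and 114.1 in the 18-month, and 104.3, 167.5 and 146 in the 22-month libraries. The 2-month library of replicate 3 was close to the 6-month range and the other 2 were far below it. The log2 difference was 0.96 ± 0.22 with an adjusted p of 0.0464 (limma), and this call was lost under 14 of 24 other settings. It was lost without any 1 of the 3 6-month libraries (adjusted p from 0.0962 to 0.123), without 2-month replicate 1 (0.196) or 2 (0.192), and without 18-month replicate 1 (0.0529) or 3 (0.0582) or 22-month replicate 3 (0.0687). The list's median difference was 0.07 between 2 and 6 months and -0.03 between 6 and 18 months, when 0 of its genes and 0.153% of all tested genes passed.

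From 18 to 22 months 8.63% of all tested genes passed as higher and 10.2% as lower. In this step, when Rpe65 had its lower value, 2 of 11 visual cycle genes passed as higher and 0 as lower. Of these Rbp4, the secreted retinol carrier, went from 118.6 ± 11.9 to 163.1 ± 24.6 normalised counts (log2 difference 0.45 ± 0.13, adjusted p = 0.0218, limma). Its call was lost without 18-month replicate 1 (0.0841) or 3 (0.0894) or 22-month replicate 1 (0.0759) or 3 (0.0827), and with the GC and length trends removed the difference was 0.27 (0.165). The retinaldehyde-binding protein Rlbp1 had a difference of 0.31 ± 0.11 that missed the threshold (adjusted p = 0.0631). The median over the 11 genes was 0.27, against 0.02 over all tested genes. Of the carotenoid oxygenases, Bco2 had means of 43.3, 46.5, 45.0 and 57.4 at 2, 6, 18 and 22 months and passed in none of these steps, and Bcmo1 was at most 2.6 in any library.

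Retinoic acid synthesis and signalling is the other main use of retinol. Of 15 listed genes 12 were tested, and 0 passed between 2 and 6 or between 6 and 18 months. In these steps 0.926% and 0.153% of all tested genes passed. Between 18 and 22 months 5 receptors were higher and 1 enzyme was lower, where 8.63% of all tested genes were higher and 10.2% lower. The retinoid X receptor Rxrg rose from 1099 ± 62.8 to 1558 ± 63.3 (log2 difference 0.50 ± 0.06, adjusted p = 0.00022, limma) and passed under all 23 other settings. Rxrb (0.30 ± 0.08, adjusted p = 0.0118), Rxra (0.27 ± 0.07, 0.0182) and the retinoic acid receptor Rarb (0.20 ± 0.06, 0.0249) also passed. Outside the rule for naming genes, and named after their values were seen, were the fifth receptor, Rarg, and the retinal dehydrogenase Aldh1a1 (-0.61 ± 0.19, adjusted p = 0.0346). Without 18-month replicate 3, Rxrb (adjusted p = 0.0740), Rxra (0.0941), Rarb (0.101) and Aldh1a1 (0.133) did not pass. Rxrb and Rxra also did not pass without 22-month replicate 3, Rxra without 22-month replicate 1, Rarb without 18-month replicate 1 or 22-month replicate 1 or 2, and Aldh1a1 without 18-month replicate 2 or 22-month replicate 2 or 3. With the GC and length trends removed the difference of Rxrb was 0.20 (adjusted p = 0.0563). Without the intensity trend Rxra (0.0506), Rarb (0.0676) and Aldh1a1 (0.0950) did not pass, nor did Aldh1a1 without a filter on low values (0.0571).

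**Figure D4:**
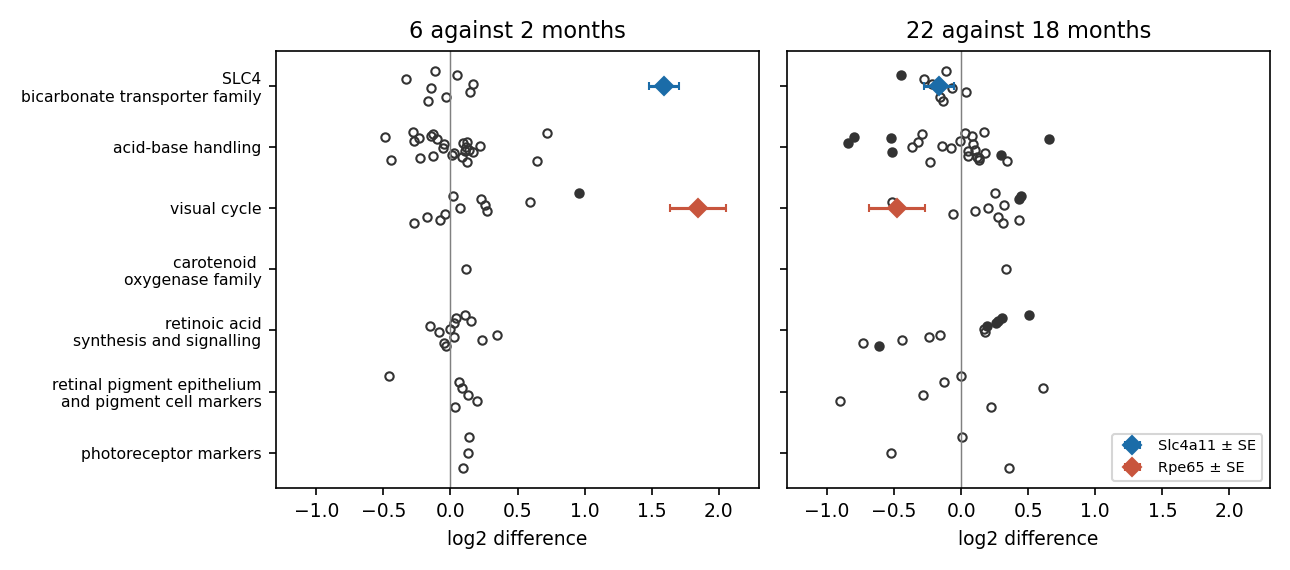
Difference on the log2(normalised count + 1) scale (horizontal axis) for each tested gene of 7 gene lists, 6 against 2 months (left) and 22 against 18 months (right); filled circles passed an adjusted p of 0.05 and open circles did not, and diamonds with bars are Slc4a11 and Rpe65 ± SE. At 6 against 2 months Slc4a11 and Rpe65 lie at 1.59 and 1.85, beyond every other gene shown, and Stra6 at 0.96 is the one filled circle.

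Markers of the retinal cells in which Rpe65 is best known were low or showed no call. Of 12 markers of retinal pigment epithelium and pigment cells 6 were tested, and 0 passed between 2 and 6, 6 and 18 or 18 and 22 months. In these steps 0.926%, 0.153% and 18.9% of all tested genes passed. Of the melanosome genes on the list, Tyrp1, Mlana and Slc45a2 had at most 1.469, 1.036 and 1.304 normalised counts in any library, and Tyrp1 and Mlana were at 0 at 6 and 18 months. Tyr (up to 16.64), Pmel (12.43), Dct (10.05) and Oca2 (6.459) had reads at every age. The list summed to 228.5 to 248.4 in the 2-month, 231.7 to 274.1 in the 6-month, 243.3 to 277 in the 18-month and 208.6 to 251.6 in the 22-month libraries, ranges that overlap. Of 11 photoreceptor markers 3 were tested and 0 passed in these steps. Markers of the choroid plexus, the secretory epithelium beside the tissue, summed to between 1045 and 2727 with overlapping ranges at all ages (r = 0.04 with Slc4a11 and -0.04 with Rpe65).

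The summed levels of some other cell type markers correlated with the 2 genes across the 12 libraries, as a description. These r include the 2- and 6-month libraries for which the genes were chosen. A step between those ages can by itself make them large, and no r over the later libraries alone was computed. Erythroid genes summed to 942.4 to 1597 normalised counts in the 2-month, 1897 to 2593 in the 6-month, 1695 to 2267 in the 18-month and 2186 to 2752 in the 22-month libraries, with r of 0.82 with Slc4a11 and 0.79 with Rpe65. Between 2 and 6 months 0.607% of all tested genes passed as higher and 0.319% as lower. Of 4 tested erythroid genes 2 passed in this step, the haemoglobin chains Beta-s (404.2 ± 95.1 against 728.7 ± 148.6) and Hba-a2 (771.7 ± 250.1 against 1409 ± 216.5). These chains made up most of the summed level. The other tested erythroid genes, Alas2 (log2 difference 0.46) and Slc4a1 (-0.16), did not pass and differed in direction. Endothelial markers summed to 2859 to 3353 at 2 months and to 3343 to 3689 at the later ages (r = 0.71 and 0.64). Of these 12 markers 1, the glucose transporter Slc2a1 (870.5 ± 55.9 against 1118 ± 28.3), passed between 2 and 6 months. The endothelial markers did not share 1 direction in that step. Pecam1, Flt1, Cdh5, Ly6c1, Abcb1a and Vwf had log2 differences from 0.12 to 0.45, and Cldn5, Kdr, Slco1a4, Tek and Esam from -0.33 to -0.04. In the other direction, proliferation genes summed to 2636 to 2846 at 2 months and 1532 to 2069, 1358 to 1383 and 1191 to 1467 at the following ages (r = -0.85 and -0.90). Of 15 of these 3 were lower at 6 than at 2 months, the mitotic genes Top2a, Prc1 and Cenpf, as were 4 of 12 neuroblast markers, Sox11, Dcx, Cd24a and Igfbpl1 (r = -0.87 and -0.89). Sox11 was the only 1 of these 10 genes to pass without 2-month replicate 1, and again without 6-month replicate 1, and other single libraries ended some of the calls. Without the intensity trend none of the 10 passed, Sox11 included (adjusted p = 0.0866, limma). Microglia markers summed to 4374 to 4541 in the 2-month, 4478 to 5178 in the 6-month, 5501 to 5872 in the 18-month and 5881 to 6778 in the 22-month libraries (r = 0.62 and 0.65), and 0 of 12 passed between 2 and 6 months. No marker of these 5 lists that was in the table was at 0 in all libraries. The part of these cell types in the levels of Slc4a11 and Rpe65 was not tested.

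Sequence composition also moved with age over the whole table. Across 14853 tested genes the difference between 6 and 2 months had a Spearman correlation of 0.426 with transcript GC and of -0.204 with length, and that between 22 and 18 months of 0.206 and -0.502. With these trends removed the differences between 6 and 2 months were 1.54 for Slc4a11 and 1.92 for Rpe65. Those between 22 and 18 months were -0.21 (adjusted p = 0.252, limma) and -0.56 (adjusted p = 0.115).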

How the data were processed

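RNA from the subventricular zone was sequenced in bulk from 3 libraries at each of 4 ages. The authors deposited reads per gene divided by a size factor for each library, a normalised signal; the submitters' processing notes name DESeq2 and mm10. The aligner, counter, annotation and strand setting are not given in the sources used here. One further deposited log2 column, the authors' own fold change, was not used. Dividing by the smallest step of each library gave whole reads for 100% of values (tolerance 1e-06). The libraries held 6381390 to 15962517 reads, and 3 reads equal 1.742 to 4.407 normalised counts. Intervals from reads cover counting error only.

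The 15663 genes that reached 10 normalised counts in 3 or more libraries were tested with limma 3.58.1 in R 4.3.3, on log2(normalised count + 1), with an intensity trend, 12 libraries in 1 fit, no covariates, two-sided, and Benjamini-Hochberg adjustment over all tested genes at 0.05. The ages 22 and 18 months share no library with the choice of Slc4a11 and Rpe65, and for these genes other contrasts carry no test. Likeness was ranked by Pearson's r over 12 libraries, and the 10 highest genes with a proper symbol were named, with no test. From each gene list, up to 4 genes passing per step were named, except 1 that is not reported here. The members and lists were chosen with earlier results of these data known. Alternatives were edgeR 4.0.16 and DESeq2 1.42.0 on recovered reads, other scalings, pseudocounts and filters, a replicate block, only the ages compared, GC and length trends removed, and each library left out. Table identifiers were matched to RefSeq GRCm38.p6 (23662 of 23725), which also gave the promoter, and lengths and GC came from the longest GENCODE M21 transcript.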

Additional observations from a re-analysis of the deposited data

How the results depend on the processing

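Over 26 settings, 282 values of Slc4a11 and Rpe65 were recomputed; 278 kept their direction and their side of the threshold or moved within the spread between libraries. Neither gene passed between 22 and 18 months in any of 23 settings, with adjusted p from 0.167 to 0.716 for Slc4a11 and from 0.0629 to 0.328 for Rpe65. The difference of Slc4a11 between 22 and 6 months, -0.06, turned to 0.0303 without 22-month replicate 2 (range -0.13 to 0.0303 over single libraries left out). With a pseudocount of 5 in place of 1, by construction, the differences of Rpe65 from 2 months were 1.53 at 6, 2.14 at 18 and 1.70 at 22 months. The correlation between the genes was 0.678 by Spearman's rho, 0.42 over the 9 libraries of 6, 18 and 22 months (chosen after seeing the data), and 0.941 to 0.965 with 1 library left out.

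Counts of genes called moved more. They were 145 (6 against 2 months), 24 (18 against 6), 2956 (22 against 18) and 5584 (22 against 2). Without a filter on low values 92 genes were called at 6 against 2 and 13 at 18 against 6 months, and without an intensity trend 17, 3 and, at 22 against 18 months, 1840. The count for 18 against 6 months was 38 by edgeR and 40 when the 22-month libraries were dropped from the fit (also chosen after seeing the data). DESeq2 called 238 at 6 against 2 and 63 at 18 against 6 months. With GC and length trends removed 1594 were called at 22 against 18 and 3493 at 22 against 2 months. With 1 library left out the count for 6 against 2 months ranged from 39 (without 2-month replicate 1) to 266 (without 22-month replicate 1), that for 18 against 6 from 8 (without 6-month replicate 2 or 18-month replicate 3) to 67 (without 22-month replicate 1), that for 22 against 18 from 1184 (without 18-month replicate 3) to 3319 and that for 22 against 2 from 4172 to 5775. The cause of these shifts was not tested.

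Of 23 calls of named list genes, 2 (Rxrg and Slc9a7) were kept under every setting run. Same-numbered libraries of different ages did not deviate together (r over 0.1 in 2 of 18 pairs, from -0.187 to 0.159), so the numbers were not treated as pairs. With a replicate block 101, 20, 2552 and 5245 genes were called, and the adjusted p between 22 and 18 months was 0.303 for Slc4a11 and 0.148 for Rpe65. Depth limits Rpe65 most, with 7 to 12 reads per library at 2 months.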

Other observations

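The annotated neighbours of Slc4a11 and Rpe65 differed less between 2 and 6 months than these genes did. Slc4a11 and Rpe65 were chosen for that step, so most other genes would differ less too. Of the 10 nearest genes 8 passed the filter on low values, 6 near Slc4a11 and 2 near Rpe65. Their log2 differences between 6 and 2 months ran from -0.16 to 0.29 near Slc4a11 and from -0.18 to 0.14 near Rpe65. Of these 8 genes 1 passed in that step, as did 0.926% of all tested genes. It was Prosapip1 near Slc4a11 (0.29 ± 0.05, adjusted p = 0.00877, limma), with means of 4779 and 5834 normalised counts. Itpa, an enzyme that clears inosine triphosphate and the nearest gene at lower coordinates than Slc4a11, had means of 350.9, 354.7, 358.6 and 408.5 normalised counts at 2, 6, 18 and 22 months. Wls, the carrier of secreted Wnt proteins and the nearest gene at higher coordinates than Rpe65, had means of 321.8, 356.9, 436.7 and 438.5. Depdc1a, a gene of dividing cells at lower coordinates than Rpe65, was too low to test, with means of 13.2, 7.62, 2.41 and 3.98.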
